A study of Schizosaccharomyces pombe with 6 samples.

Results

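Fission yeast (*Schizosaccharomyces pombe*) makes many RNAs from the strand opposite to its protein-coding genes. The 167 described here are the antisense RNAs that wild-type cells already held at an appreciable level: annotated antisense RNAs, other than those named *prl*, whose counts averaged at least 10 CPM over the 3 wild-type (WT) libraries. CPM is a gene's count divided by its library's total and scaled up, so it is a share of the library. The 167 were drawn from 686 antisense RNAs among 6986 annotated IDs. The WT values chose them, and the same WT libraries are a side of every comparison below. The fold change of an RNA in the set is therefore not independent of the choice. A choice on high WT values can tilt fold changes towards falls, most of all near the minimum. The WT levels and the counts of calls are given as a description. The *spx1*Δ libraries and the counts of the sense genes did not enter the choice.

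The study compared poly(A)+ RNA of an *spx1*Δ strain (h+ *spx1*Δ::*kanMX*, lab number BS53) with that of an otherwise unlabelled h+ WT strain (AGP73), 3 libraries each, from log-phase cultures in vegetative growth in YES medium at 30 °C. Spx1, named Pqr1 in the current annotation, has an SPX domain, which binds inositol pyrophosphates, and a RING domain of the ubiquitin ligase type. By the paper's strain list, the strains built for the study carry mutations in *leu1*, *ura4* and *his3*, and an *ade6* mutation that is not the same in all. The sample titles do not give the *ade6* allele of either strain. Each group was a single strain, so *spx1*Δ cannot be told apart from any other difference between the strains. The p-values set the difference between the strains against the spread between these libraries, which the paper calls biological replicates. Whether RNA per cell or the number of cells making it differed cannot be told apart in bulk RNA.

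Antisense RNAs arise when a promoter fires on the opposite strand, often from the nucleosome-depleted region of a neighbouring gene, or when a transcript runs past the end of a convergent gene. Fission yeast cells limit them through chromatin: the Clr6 histone deacetylase, Set2, histone chaperones such as FACT, and the histone variant H2A.Z. Others are removed by the nuclear exosome and by transcription termination factors. Many genes for mating and meiosis, silent in growing cells, have antisense RNAs in vegetative growth. A poly(A)+ library reports only the polyadenylated ones.

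Library totals were 20929960 to 24696086 counts in *spx1*Δ and 11539278 to 15282140 in WT, so depth differed with strain. The lowest count of any of the 167 RNAs in any library was 11. The counts of the *spx1* gene itself (*pqr1* in the tables) were 118, 124 and 116 CPM in *spx1*Δ and 294, 281 and 283 CPM in WT, a log2 fold change of -1.31 (SE 0.05, adjusted p = 1.07e-04 in edgeR's quasi-likelihood test). They were lower in all 3 *spx1*Δ libraries but well above 0. By the paper's methods the deletion removed the whole open reading frame. Gene-level counts do not show where in the annotated gene the remaining counts lay. Both strains are labelled h+. The h+ pheromone gene *map2* had 49.3, 268 and 174 CPM in *spx1*Δ against 4.84, 4.77 and 4.95 CPM in WT, while *map3*, the other h+ gene read, was not called (0.06 on the log2 scale, edgeR adjusted p = 0.732). Of the h- genes, *mfm1*, an M-factor gene, had at most 0.458 CPM in any library, *mfm3* and *mam2* rose (3.42 and 1.59, adjusted p = 0.00495 and 0.0156), *mam1* fell (-0.43, adjusted p = 0.0289) and *mfm2* was not called. The *mam2* and *mam1* calls were lost without any WT library or *spx1*Δ replicate 3, and that for *mam1* also without *spx1*Δ replicate 2 (adjusted p = 0.0562 to 0.102). Their part in the antisense changes was not tested. The *spx1*Δ libraries differed among themselves: replicate 1 lay closest to WT for 105 of the 107 antisense RNAs called higher and for 10 of the 12 called lower.

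The 167 RNAs took 0.679, 1.14 and 1.02% of all counts in *spx1*Δ, against 0.470, 0.475 and 0.493% in WT. The 3 *spx1*Δ shares lay above every WT share. The median RNA of the set had 37.4 CPM in *spx1*Δ and 20.8 CPM in WT. In WT most sat low in the range, with 80 below 20 CPM and 19 above 50 CPM. Counts of different RNAs were not corrected for length, so these are shares of a library and not levels per molecule. The 10 most abundant held 25.6% of the set's counts in *spx1*Δ and 24.3% in WT. Across libraries of one strain the median coefficient of variation was 19.2% in *spx1*Δ and 6.93% in WT. In *spx1*Δ 156 of the 167 still averaged at least 10 CPM, and another 127 antisense RNAs reached that level there and not in WT.

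**Figure D1:**
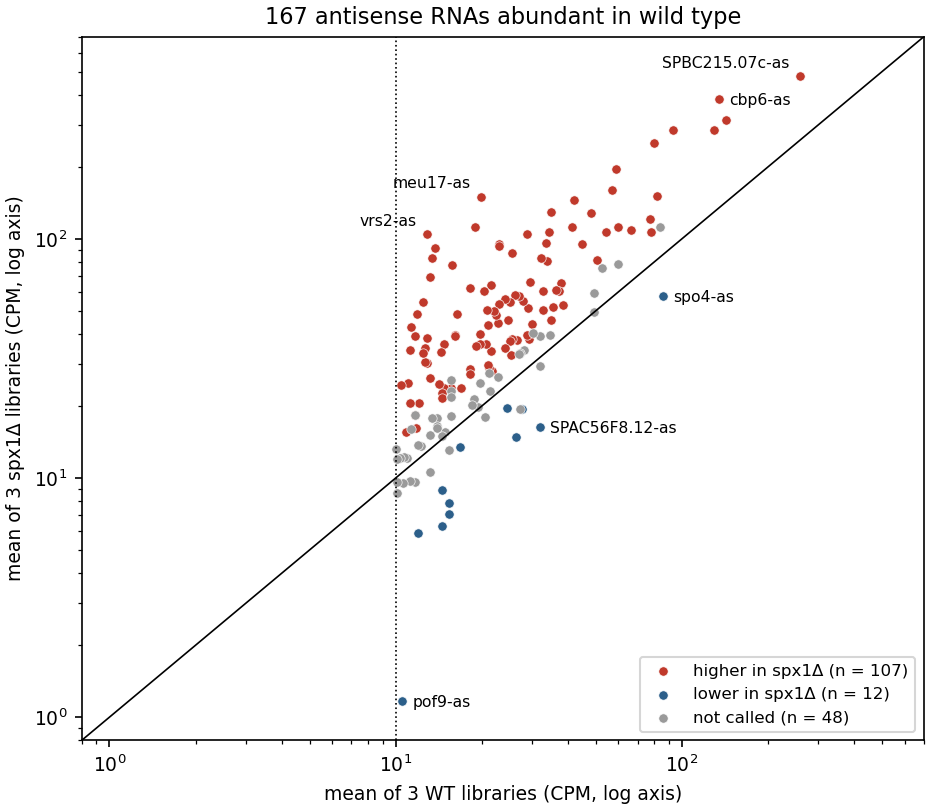
Each point is 1 of the 167 antisense RNAs, with its mean CPM in the 3 *spx1*Δ libraries on the y axis and in the 3 WT libraries on the x axis, both logarithmic; the solid line marks equal levels and the dotted line the minimum of 10 CPM. The 107 RNAs called higher in *spx1*Δ lie above the line over the whole range of WT levels, and the 12 called lower include pof9-antisense-1, far below the rest.

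The most abundant of all lay across *pdp2*, the gene of a PWWP domain protein, and also faced *arg4*. Its annotation overlaps a same-strand feature, so reads of the overlap could be shared or dropped in counting. SPBC215.07c-antisense-1 (SPNCRNA.1658) had 359, 550.0 and 531 CPM in *spx1*Δ against 244, 266 and 264 CPM in WT, a log2 fold change of 0.84 (SE 0.15, edgeR adjusted p = 0.00695). The sense gene went the other way: *pdp2* had 20.3, 9.10 and 9.27 CPM in *spx1*Δ and 27.2, 25.0 and 27.8 CPM in WT (log2 fold change -1.08, SE 0.33, adjusted p = 0.0343). In both strains far more counts fell on the antisense strand of this locus than on the sense strand. SPNCRNA.1626, which carries no gene's name and lies opposite *mbx2* (a MADS-box transcription factor) and SPBP8B7.32, had 228, 381 and 332 CPM in *spx1*Δ against 145, 144 and 138 CPM in WT. Next came *cbp6-antisense-1*, over the gene of a regulator of mitochondrial cytochrome b translation, with 249.9, 462 and 444 CPM in *spx1*Δ and 119, 140.5 and 144 CPM in WT. Both were higher in every *spx1*Δ library than in any WT library, by 1.09 and 1.46 on the log2 scale (adjusted p = 0.00491 for each). The call for *pdp2* was lost when any library but *spx1*Δ replicate 1 was left out (adjusted p = 0.0718 to 0.107).

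SPBC28E12.02-antisense-1 had 191, 349 and 314 CPM in *spx1*Δ against 126, 132 and 130 CPM in WT (1.08 on the log2 scale, adjusted p = 0.00781). It covers the gene of an RNA-binding protein that was nearly silent in WT. *tti1-antisense-1* had 196, 342 and 321 CPM in *spx1*Δ against 85.1, 94.4 and 99.9 CPM in WT (1.57, adjusted p = 0.00352). It lies wholly inside *tti1*, which encodes a subunit of a complex that helps fold the large kinases of the TOR and ATM family. *ams2-antisense-1* lies over the gene of a GATA factor that times histone gene expression. It had 138, 334 and 283 CPM in *spx1*Δ and 72.8, 84.2 and 83.4 CPM in WT (1.59, adjusted p = 0.00797). For *ght6-antisense-1*, over a hexose transporter gene, the values were 119, 168 and 165 CPM in *spx1*Δ against 86.6, 75.9 and 82.5 CPM in WT (0.83, adjusted p = 0.0049). These 4 all stood above WT in all 3 *spx1*Δ libraries.

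The other 3 of the top 10 differed. *spo4-antisense-1*, over the gene of a meiotic kinase related to Cdc7, was lower: 74.3, 50.2 and 48.5 CPM in *spx1*Δ against 90.4, 88.9 and 78.6 CPM in WT (-0.62 on the log2 scale, SE 0.19, edgeR adjusted p = 0.0323). SPBC24C6.09c-antisense-1, over a phosphoketolase gene, rose by a small amount, with 87.2, 119.6 and 114 CPM in *spx1*Δ against 77.1, 76.9 and 80.4 CPM in WT (0.40, adjusted p = 0.0231). SPAC4A8.10-antisense-1, inside the lipase gene *rog1*, was not called (0.38, adjusted p = 0.0751), and its lowest *spx1*Δ value, 83.5 CPM, lay within the WT range of 80.4 to 86.4 CPM. The calls for the *spo4* and SPBC24C6.09c antisense RNAs were lost when any library but *spx1*Δ replicate 1 was left out (adjusted p = 0.0655 to 0.105 and 0.0561 to 0.0860).

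Of the 167 RNAs, all of which passed the filter on low counts, 107 (64.1%) were called higher in *spx1*Δ at an adjusted p of at most 0.05, and 12 (7.19%) lower, by edgeR's quasi-likelihood test. Over all 6127 genes tested, 27.6% were called higher and 25.4% lower. Changes of at least 2-fold were called for 57 higher and 6 lower RNAs, beside 10.9% and 2.68% of all genes. All 3 *spx1*Δ libraries lay above all 3 WT libraries for 117 RNAs and below them for 15, where 35.3% and 29.9% of all genes did so. The median log2 fold change was 0.59, with a range of -3.18 to 2.97, and that of all genes was -0.01. In single *spx1*Δ libraries the median difference from the WT mean of the 107 raised RNAs was 0.58, 1.35 and 1.23 on the log2 scale. Without *spx1*Δ replicate 1, 124 were called higher and 16 lower, all 107 and 12 among them. In that fit 36.8% of all genes were called higher and 38.5% lower. Without WT replicate 1, WT replicate 3 or *spx1*Δ replicate 3, 76, 74 and 73 were called higher, and 7 lower each time. Of all genes 15.0, 15.3 and 15.4% were then called higher and 10.5, 10.2 and 9.08% lower. When the minimum was set on the mean of all 6 libraries instead, which lets in RNAs high in *spx1*Δ alone, 181 of 242 were called higher and 10 lower.

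Of the 519 antisense RNAs under the minimum, 440 passed the filter on low counts, and 256 of those were called higher and 8 lower. An RNA scarce in WT can pass that filter through the *spx1*Δ libraries alone, which favours higher calls in this set, so its counts lend nothing to those of the 167. Just inside the minimum, *alr2-antisense-1*, mde1-antisense-1 and SPNCRNA.1138 averaged 13.2, 8.67 and 9.65 CPM in *spx1*Δ and 10.1, 10.1 and 10.1 CPM in WT. Just outside it, SPCC584.01c-antisense-1, rex3-antisense-1 and mss1-antisense-1 averaged 26.9, 143 and 11.2 CPM in *spx1*Δ and 9.85, 9.80 and 9.78 CPM in WT.

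**Figure D2:**
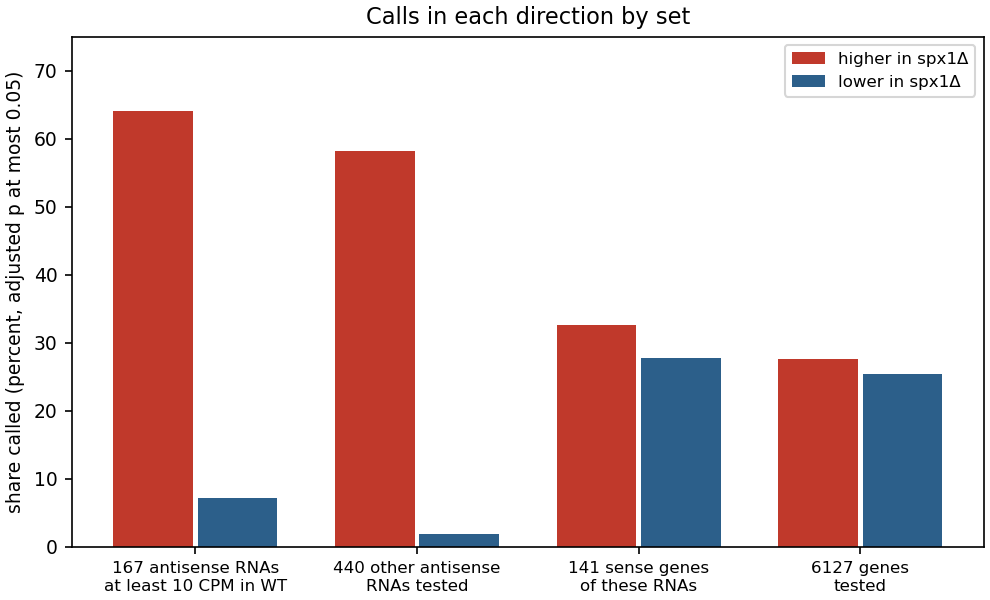
Bars give the percent of each set called higher (red) or lower (blue) in *spx1*Δ by edgeR at an adjusted p of at most 0.05. The 167 antisense RNAs lean to higher calls (64.1%), as do the other antisense RNAs (58.2%), which could pass the filter through *spx1*Δ alone; the sense genes of the 167 divide (32.6% higher, 27.7% lower) much like all 6127 genes tested.

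The largest rises were in RNAs that WT cells held at means of 12.5 to 19.9 CPM. *vrs2-antisense-1*, which lies inside the gene of the mitochondrial valine-tRNA ligase, had 47.8, 157 and 110.3 CPM in *spx1*Δ against 12.8, 12.3 and 13.4 CPM in WT, a 7.84-fold difference (log2 2.97, SE 0.41, adjusted p = 0.00404). *meu17-antisense-1*, over the gene of a glucan-glucosidase first found among meiotically upregulated genes, had 90.3, 185 and 174 CPM in *spx1*Δ and 18.5, 21.8 and 19.4 CPM in WT (7.25-fold, log2 2.86, SE 0.27, adjusted p = 0.00203). In neither RNA did the strains overlap, and in both replicate 1 was the lowest *spx1*Δ library. Over *gid10*, which encodes a substrate receptor of the GID ubiquitin ligase, SPAP8A3.13c-antisense-1 had 33.7, 139 and 101 CPM in *spx1*Δ against 12.5, 14.0 and 14.5 CPM in WT (log2 2.68, adjusted p = 0.00739). Over *spx2*, the gene of another SPX domain protein, SPCC1827.07c-antisense-1 had 41.3, 108 and 98.9 CPM in *spx1*Δ against 13.2, 12.0 and 14.9 CPM in WT (log2 2.57, adjusted p = 0.00402). Neither sense gene was called: *gid10* had a log2 fold change of -0.01 and *spx2* one of -0.24.

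*vps4-antisense-1* had 44.1, 165 and 125 CPM in *spx1*Δ against 18.5, 16.9 and 21.3 CPM in WT (log2 2.50, edgeR adjusted p = 0.0073). Vps4 is the ATPase that takes ESCRT complexes apart. *prp22-antisense-1*, over a splicing helicase gene, had 43.7, 86.4 and 78.1 CPM in *spx1*Δ against 14.2, 12.7 and 12.6 CPM in WT (log2 2.34, adjusted p = 0.00239). *pex14-antisense-1*, over a peroxisomal docking factor gene, had 35.0, 119 and 79.7 CPM in *spx1*Δ against 14.5, 15.3 and 17.4 CPM in WT (log2 2.25, adjusted p = 0.00769). *srm1-antisense-1*, over the spermidine synthase gene, had 25.8, 80.0 and 58.3 CPM in *spx1*Δ against 10.3, 14.5 and 12.6 CPM in WT (log2 2.08, adjusted p = 0.00868). The lowest *spx1*Δ library exceeded the highest WT library in all 4. Their sense genes fell by smaller amounts, with log2 fold changes of -0.43 for *vps4*, -0.22 for *prp22*, -0.80 for *pex14* and -0.37 for *srm1* (adjusted p = 0.0135, 0.0222, 0.0185 and 0.045). Those sense calls were lost when WT replicate 2, WT replicate 3 or *spx1*Δ replicate 3 was left out, for *pex14* also without WT replicate 1, and for *prp22* and *srm1* also without WT replicate 1 or *spx1*Δ replicate 2 (adjusted p = 0.0514 to 0.123 over the 4 genes). With scaling on protein-coding genes alone the adjusted p was 0.0522 for *prp22* and 0.0632 for *srm1*.

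**Figure D3:**
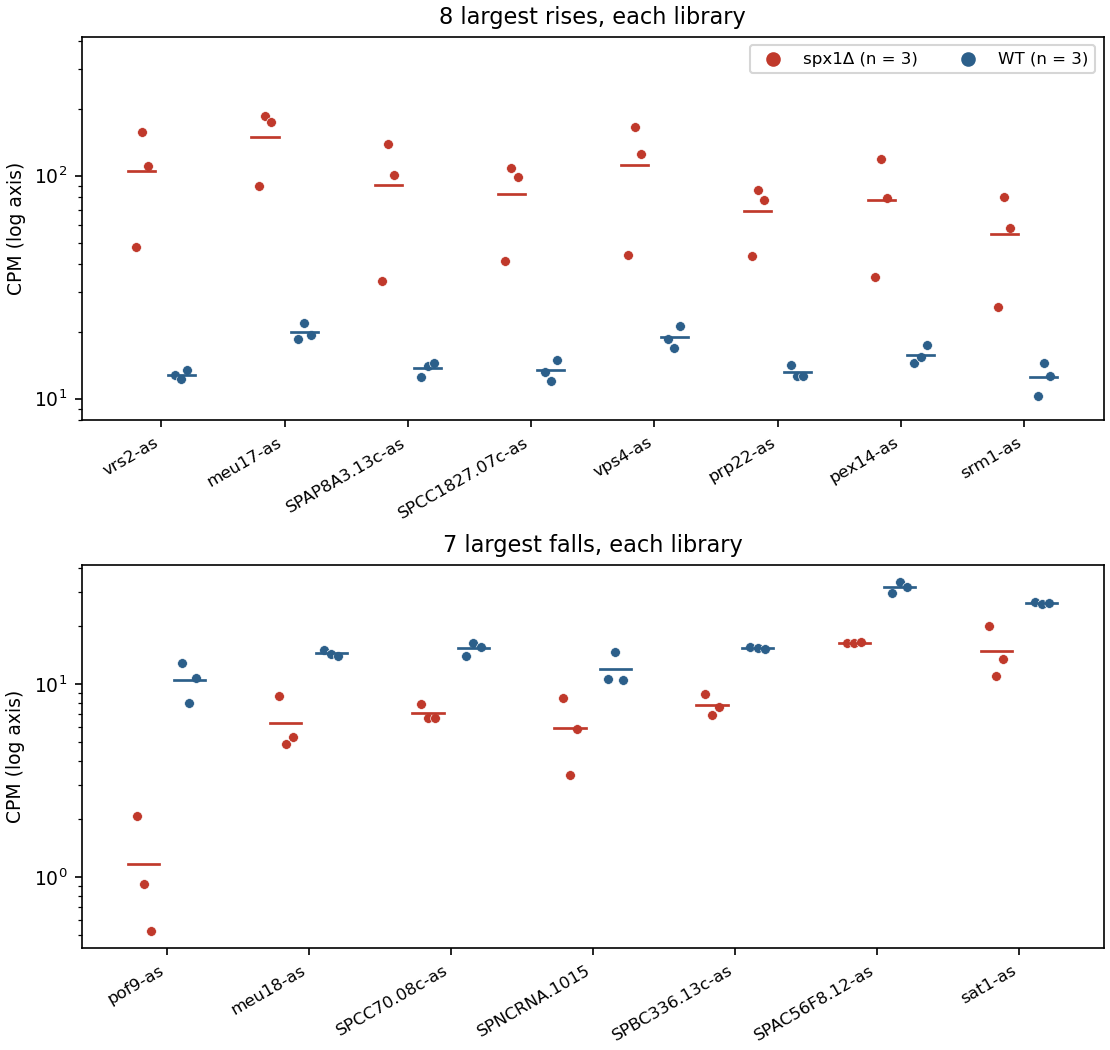
Points are single libraries (CPM, logarithmic axis) and bars are means of 3, with *spx1*Δ in red to the left of WT in blue, for the 8 called RNAs with the largest rise (top) and the 7 with the largest fall (bottom). No strains overlap; in each RNA of the upper panel 1 *spx1*Δ library, replicate 1, lies nearer to WT, as vrs2-antisense-1 shows with 47.8 CPM beside 157 and 110.3 CPM.

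One fall stood well apart in size. *pof9-antisense-1*, over the gene of an F-box protein, had 2.07, 0.924 and 0.526 CPM in *spx1*Δ against 12.9, 7.97 and 10.8 CPM in WT, 9.09-fold lower in *spx1*Δ (log2 fold change -3.18, SE 0.48, adjusted p = 0.00466). Its sense gene was higher: *pof9* had 158, 259 and 259 CPM in *spx1*Δ and 129.6, 134 and 130.3 CPM in WT (log2 0.72, adjusted p = 0.0169). The next gene along, *ser2*, showed the reverse. *ser2-antisense-1* and *pof9* run away from each other, *pof9* being the nearest gene wholly upstream of the RNA's start. In the annotation the RNA covers the 5′ end of *ser2* and not its 3′ end. It thus starts inside *ser2*, and a start region shared with *pof9* cannot be assumed. This RNA had 81.5, 126 and 114 CPM in *spx1*Δ against 50.1, 57.5 and 55.8 CPM in WT (log2 0.92, adjusted p = 0.0059). *ser2*, the phosphoserine phosphatase gene of serine synthesis, had 81.5, 61.8 and 63.1 CPM in *spx1*Δ and 161, 159 and 154 CPM in WT (log2 -1.24, adjusted p = 0.00228). So at these neighbouring genes the *pof9* mRNA and the *ser2* antisense RNA were higher in *spx1*Δ, and the *ser2* mRNA and the *pof9* antisense RNA were lower. The call for *pof9* was lost without any 1 WT library or *spx1*Δ replicate 3 (adjusted p = 0.0565 to 0.0655).

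The other falls were 2.36-fold or less. *meu18-antisense-1* had 8.67, 4.90 and 5.30 CPM in *spx1*Δ against 15.1, 14.3 and 14.0 CPM in WT (log2 -1.24, edgeR adjusted p = 0.00955). SPCC70.08c-antisense-1, over a methyltransferase gene, had 7.90, 6.65 and 6.69 CPM in *spx1*Δ against 13.9, 16.5 and 15.7 CPM in WT (-1.16, adjusted p = 0.00355). SPAC56F8.12-antisense-1, over a membrane protein gene, had 16.4, 16.3 and 16.5 CPM in *spx1*Δ against 29.7, 34.0 and 31.9 CPM in WT (-1.01, adjusted p = 0.00203). The last had nearly equal values in the 3 *spx1*Δ libraries. SPNCRNA.1015 (-1.05), SPBC336.13c-antisense-1 over the mitochondrial peptidase gene *mmp2* (-1.02) and *sat1-antisense-1* over the gene of a Golgi exchange factor subunit (-0.86) fell too, with adjusted p = 0.0434, 0.00423 and 0.0219. *mmp2* and *sat1* were not called. The call for SPNCRNA.1015 was lost without any library but *spx1*Δ replicate 1 (adjusted p = 0.0564 to 0.134), and that for *sat1-antisense-1* without any WT library or *spx1*Δ replicate 3 (0.0678 to 0.0818).

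For 144 of the 167 RNAs a sense gene could be paired by name and lay on the opposite strand in the reference. Of their 141 testable sense genes, 46 (32.6%) were called higher in *spx1*Δ and 39 (27.7%) lower by edgeR, beside the 27.6% and 25.4% of all genes. Their median log2 fold change was 0.07. Scaling on protein-coding genes alone gave 52 higher and 29 lower. Leaving out WT replicate 1, 2 or 3 or *spx1*Δ replicate 3 gave 25, 26, 26 and 25 higher and 14, 15, 12 and 13 lower. Of all genes 15.0 to 16.5% were called higher and 9.08 to 12.3% lower in those fits. Leaving out *spx1*Δ replicate 1 gave 58 and 49, beside 36.8% and 38.5% of all genes. The sense genes as a set divided between the directions in each of these fits.

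Antisense counts outnumbered sense counts at 76 of the 144 pairs in *spx1*Δ and at 65 in WT. The median pair had 114 antisense counts per 100 sense counts in *spx1*Δ and 78.3 in WT, with no correction for length. The ratio was above all WT libraries in all 3 *spx1*Δ libraries for 72 pairs and below them for 26. Among 606 pairs of all antisense RNAs, 56.6% and 10.6% were so placed. The lowest WT ratio was at *srm1*, with 1.37 antisense counts per 100 sense counts, and 3 pairs lay under 5. At the other end stood loci read almost wholly from the antisense strand. *spo4* itself had at most 0.191 CPM in any library, so its ratio of 438 antisense counts per sense count in *spx1*Δ and 1184 in WT rests on a handful of sense counts. The ratio was 125 in *spx1*Δ and 126 in WT at *ght6*, 164 and 65.9 at *atf21* (a bZIP transcription factor gene), and 96.9 and 121 at *arp10* (a dynactin subunit gene). In each of these 3 the sense gene had at most 1.39 CPM in any library. *atf21-antisense-1* rose, with 66.6, 119 and 103 CPM in *spx1*Δ against 31.2, 32.4 and 36.6 CPM in WT (log2 1.47, adjusted p = 0.00389), and SPBC56F2.03-antisense-1 over *arp10* was not called (0.24, adjusted p = 0.082).

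Both RNAs of a pair were called in 63 pairs, 38 in opposite directions and 25 in the same. Antisense higher with sense lower made 33 of these, antisense lower with sense higher 5, both higher 23 and both lower 2. Among the 91 pairs whose antisense RNA rose, 33 sense genes fell, 23 rose and 35 were not called, but the order of fallen and risen sense genes depended on single libraries. Over the same 91 pairs 12, 12, 11 and 11 sense genes fell and 16, 15, 16 and 15 rose without WT replicate 1, 2 or 3 or *spx1*Δ replicate 3. Without *spx1*Δ replicate 2 the counts were 21 and 21, without *spx1*Δ replicate 1 they were 39 and 30, and with scaling on protein-coding genes alone 24 and 26. Pairs called higher on the antisense and lower on the sense strand within 1 fit numbered 5 to 44 with 1 library left out. Where the antisense RNA was not called, 18 sense genes rose, 4 fell, 18 were not called and 2 were not tested. Across the 141 pairs the log2 fold changes of antisense and sense had a Spearman rho of -0.24 and a Pearson r of -0.22. These describe genes measured in the same 6 libraries, and genes are not independent replicates.

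**Figure D4:**
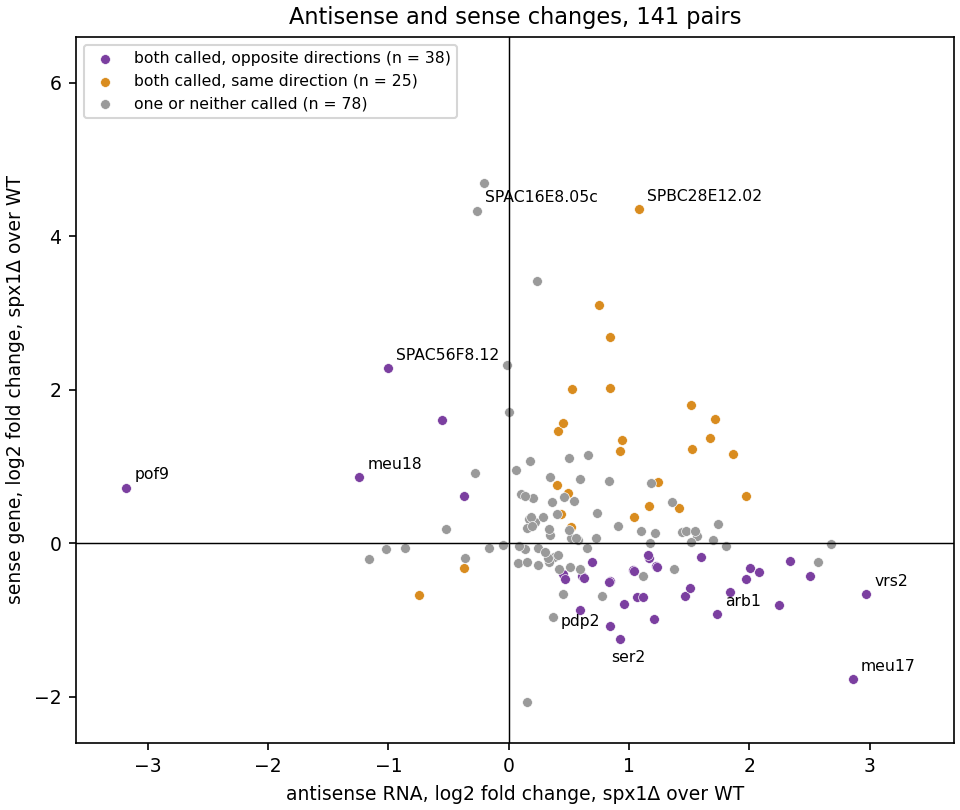
Each point is 1 of 141 pairs, with the log2 fold change (*spx1*Δ over WT) of the antisense RNA on the x axis and of the sense gene on the y axis. Purple points, called in opposite directions, fill the lower right with antisense higher and sense lower, 33 of 38 (a count of 5 to 44 with 1 library left out), and meu17 and ser2 lie at its edge; the 4 highest sense changes sit at antisense changes of 1.08 or less.

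By the smaller of its changes the most opposed pair was at *meu17*. The sense RNA had 1.05, 1.71 and 1.19 CPM in *spx1*Δ against 4.84, 3.73 and 4.46 CPM in WT (log2 -1.77, SE 0.23, adjusted p = 0.00381), under an antisense RNA 7.25-fold higher. *cwf19*, a gene of the spliceosome-associated Cdc5 complex, had 34.1, 24.6 and 29.2 CPM in *spx1*Δ against 59.2, 56.1 and 54.4 CPM in WT (log2 -0.99, adjusted p = 0.0041). Its antisense RNA had 61.9, 93.9 and 86.1 CPM in *spx1*Δ and 32.6, 32.2 and 36.5 CPM in WT (1.20, adjusted p = 0.00344). The pair thus changed places, with the antisense RNA taking more counts than the mRNA in *spx1*Δ only. *arb1* encodes a partner of Argonaute in the RNA interference pathway. It had 20.9, 24.5 and 21.5 CPM in *spx1*Δ against 40.4, 40.8 and 41.6 CPM in WT (-0.93, adjusted p = 0.00184), and its antisense RNA 41.5, 76.9 and 69.4 CPM in *spx1*Δ against 16.4, 16.7 and 21.5 CPM in WT (1.73, adjusted p = 0.00389). *arb1* changed places in the same way. *pex14* had 31.7, 18.6 and 23.1 CPM in *spx1*Δ and 42.1, 40.2 and 41.9 CPM in WT, and here too the antisense RNA (35.0, 119 and 79.7 CPM in *spx1*Δ) overtook the mRNA.

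In the other direction, *meu18* had 76.8, 99.9 and 98.2 CPM in *spx1*Δ against 49.2, 46.1 and 51.0 CPM in WT (log2 0.86, edgeR adjusted p = 0.00324) beside its falling antisense RNA. SPAC56F8.12 had 0.567, 3.33 and 2.20 CPM in *spx1*Δ against 0.196, 0.607 and 0.412 CPM in WT (2.29, adjusted p = 0.0412). The strains overlapped at this gene, and its call was lost without any 1 WT library (adjusted p = 0.0800 to 0.132) and in limma-voom (0.111). *gnr1*, a gene for a G protein beta subunit named here after its values were seen, had 35.0, 50.7 and 55.2 CPM in *spx1*Δ against 14.7, 15.3 and 14.8 CPM in WT (1.60, adjusted p = 0.00234). Its antisense RNA had 21.6, 18.5 and 18.1 CPM in *spx1*Δ and 27.0, 28.5 and 27.3 CPM in WT (-0.55, adjusted p = 0.0101). Of the 5 pairs of this kind the rest were *pof9* and *rhp16*. The call for *rhp16-antisense-1* was lost without any library but *spx1*Δ replicate 1 (adjusted p = 0.0659 to 0.127).

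**Figure D5:**
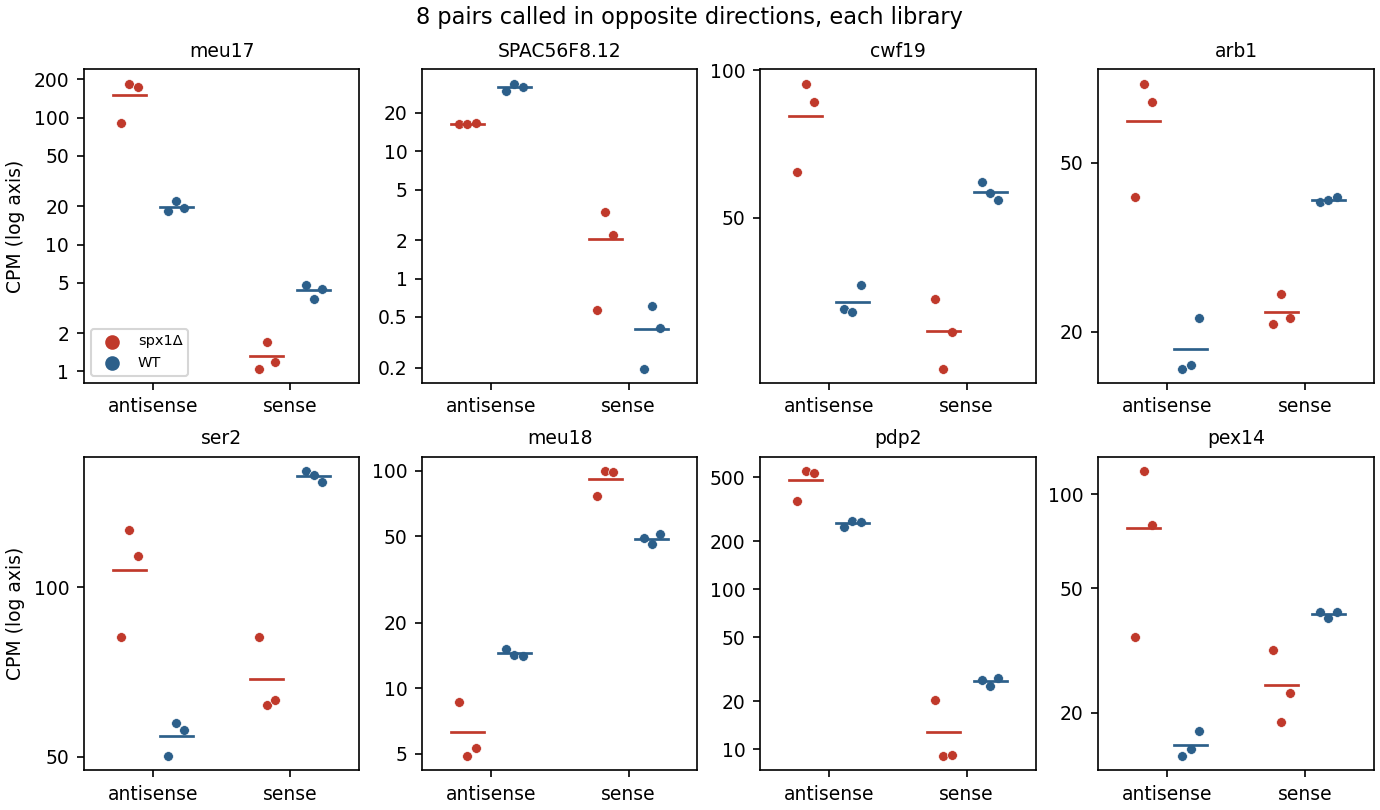
Each panel is 1 pair, with single libraries as points and means as bars (CPM, logarithmic axis), the antisense RNA on the left and the sense gene on the right, and *spx1*Δ (red) left of WT (blue). In 6 panels, such as ser2, *spx1*Δ is above WT on the antisense side and below it on the sense side; meu18 and SPAC56F8.12 show the reverse.

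Several sense genes that were nearly silent in WT rose steeply while the antisense RNA over them moved little; they were picked here by their values. *mug95*, a meiotically upregulated gene, had 10.2, 45.1 and 30.5 CPM in *spx1*Δ against 1.37, 0.867 and 0.893 CPM in WT (log2 4.69, edgeR adjusted p = 0.00381). Its antisense RNA was not called (-0.20, adjusted p = 0.219). The meiotic gene SPAC16E8.05c, which the annotation also calls Mde1, had 9.23, 59.4 and 39.3 CPM in *spx1*Δ against 1.64, 1.99 and 1.51 CPM in WT (4.33, adjusted p = 0.00588), with mde1-antisense-1 at -0.27 (adjusted p = 0.208). *mfm3*, a gene of the M-factor pheromone, had 4.78, 15.3 and 11.6 CPM in *spx1*Δ against 1.24, 1.04 and 0.549 CPM in WT (3.42, adjusted p = 0.00495), and its antisense RNA 28.0, 36.9 and 35.0 CPM in *spx1*Δ against 28.2, 27.5 and 26.0 CPM in WT (0.24, adjusted p = 0.116). At *mug95* the strand with more counts was the sense strand in all 3 *spx1*Δ libraries and the antisense strand in all 3 WT libraries, with 83.3, 22.8 and 31.8 antisense counts per 100 sense counts in *spx1*Δ and 710, 1230 and 1269 in WT. At *mfm3* the antisense strand kept more counts throughout, with 586, 241 and 303 per 100 in *spx1*Δ and 2268, 2642 and 4738 in WT. In limma-voom the adjusted p of SPAC16E8.05c was 0.0583.

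Other pairs rose on both strands. At *mcp4*, the gene of a prospore membrane protein, the antisense RNA had 51.0, 117 and 93.1 CPM in *spx1*Δ against 26.4, 22.9 and 27.1 CPM in WT (log2 1.72, edgeR adjusted p = 0.0056). *mcp4* itself had 9.15, 17.3 and 13.9 CPM in *spx1*Δ against 3.80, 4.51 and 4.40 CPM in WT (1.61, adjusted p = 0.00495). SPBC28E12.02 had 1.38, 7.71 and 5.30 CPM in *spx1*Δ against 0, 0.173 and 0.481 CPM in WT (4.36, SE 0.96, adjusted p = 0.0126). Even so its antisense RNA outnumbered it by 60.4 to 1 in *spx1*Δ, and by 594 to 1 in WT. The SPBC28E12.02 call was lost without WT replicate 2 (adjusted p = 0.0539).

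The sense genes were grouped by their name or product. Beside the group counts below, the whole set of 167 had 64.1% of its RNAs higher and 7.19% lower. All genes tested had 27.6% higher and 25.4% lower. The meiosis and mating group held 18 pairs, of which 12 antisense RNAs (66.7%) rose and 2 fell (*meu18* and *spo4*). Among the 17 testable sense genes of that group, 10 rose and 3 fell, with a median log2 fold change of 0.86. The 3 that fell, *meu17*, *meu25* and *ste6* (the exchange factor for Ras1 in mating), lay under antisense RNAs that rose. *ste6* had 21.5, 17.8 and 21.4 CPM in *spx1*Δ against 27.6, 24.9 and 28.8 CPM in WT (-0.47, adjusted p = 0.0192), and *ste6-antisense-1* had 24.5, 69.6 and 50.7 CPM in *spx1*Δ against 10.4, 12.0 and 13.0 CPM in WT (1.97, adjusted p = 0.00743). The calls for *ste6* and *meu25* were lost without WT replicate 1, WT replicate 3 or *spx1*Δ replicate 3, and *meu25* also without WT replicate 2 or *spx1*Δ replicate 2 (adjusted p = 0.0562 to 0.0741). That for *meu25-antisense-1* was lost without any WT library or *spx1*Δ replicate 3 (0.0570 to 0.0639).

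The group of enzymes of metabolism and other enzymes held 53 pairs. There 36 antisense RNAs (67.9%) rose and 2 fell, while 13 sense genes (24.5%) rose and 17 (32.1%) fell by edgeR. The median log2 fold changes were 0.54 for the antisense RNAs and -0.02 for the sense genes. Of 12 pairs at membrane transporter genes, 7 antisense RNAs rose and 0 fell, and 6 of 11 sense genes rose and 2 fell. *amt3*, an ammonium transporter gene, had 8.02, 42.8 and 26.3 CPM in *spx1*Δ against 3.08, 2.60 and 2.88 CPM in WT (3.10, adjusted p = 0.00873). *amt3-antisense-1* had 21.8, 47.4 and 39.3 CPM in *spx1*Δ against 20.7, 19.3 and 21.9 CPM in WT, where the strains overlapped (0.75, adjusted p = 0.0475, and 0.111 to 0.133 without any library but *spx1*Δ replicate 1). At the 7 genes of transcription and chromatin 3 antisense RNAs rose and 1 fell, and 4 sense genes fell and 0 rose. Among them were *ams2*, *sfc3* (a TFIIIC subunit gene) and *grt1*. The calls for *ams2* and *sfc3* were lost without any library but *spx1*Δ replicate 1 (adjusted p = 0.0621 to 0.114), and that for *ams2* also when libraries were scaled by their totals (0.0818) or on protein-coding genes alone (0.13). That for *grt1* was lost without WT replicate 1 or WT replicate 3 (0.0531 to 0.0589). In the translation group, 4 of 6 antisense RNAs rose and 0 fell, with 2 sense genes in each direction. Of 3 pairs at genes of cell cycle, cytoskeleton and DNA, the *rad8* antisense RNA rose and the *rhp16* antisense RNA fell. The remaining 45 pairs had 28 antisense RNAs higher and 5 lower, and 14 sense genes higher and 11 lower.

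Where the RNAs lay was read from the RefSeq annotation of assembly ASM294v3, used only for which genes neighbour or face each other. The 74, 65 and 28 RNAs on chromosomes I, II and III had 50, 38 and 19 higher and 3, 6 and 3 lower calls. These were 67.6, 58.5 and 67.9% higher and 4.05, 9.23 and 10.7% lower, beside 64.1% and 7.19% of the whole set. Of the 144 paired RNAs, 45 covered both ends of the sense gene, 53 its 5′ end only, 28 its 3′ end only and 18 neither end. Higher calls numbered 31, 28, 20 and 12 in these classes (68.9, 52.8, 71.4 and 66.7%), beside 63.2% of all 144. Lower calls numbered 3, 5, 3 and 0. The 19 RNAs that lie wholly within a gene of the opposite strand each had at least 113 counts in every library. For 27 RNAs the product note names a possible alternative UTR, among them those over *cbp6*, *meu17* and *sat1* described above. Of the 27, 16 rose and 3 fell, against 91 and 9 of the 140 with no such note. Of the 21 RNAs not named for a gene, 18 faced 2 or more coding genes.

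The nearest coding gene wholly upstream of the RNA's start was on the opposite strand for 113 RNAs. No limit was set on its distance, and a sense gene that holds the RNA's start was passed over. Some of these RNAs, such as *tti1-antisense-1* and *ser2-antisense-1*, start inside their sense gene, so a shared start region cannot be assumed. Of the 113 RNAs, 76 (67.3%) rose and 9 (7.96%) fell, beside 64.1% and 7.19% of all 167. Among their neighbours 25 (22.1%) rose and 44 (38.9%) fell, beside 27.6% and 25.4% of all genes. Of the 76 that rose, 21 had a neighbour that rose, 24 one that fell and 31 one not called. The Pearson r of the 2 log2 fold changes was 0.16 over these 113 pairs, as a description of genes from the same libraries. For 44 RNAs the upstream gene was on the same strand, and 22 of them rose and 3 fell. For another 10 a same-strand gene's annotation ran over the start of the RNA, and 9 of the 10 rose and 0 fell, with a median log2 fold change of 1.50. They include the RNAs over *cbp6*, *meu17*, *vps4*, *srm1* and *mcp4*, behind *rba50*, *ilv6*, *ptc3*, *dbp5* and *erp5*. The upstream genes of the 10 had log2 fold changes between -0.54 and 0.98, and 2 of them were called higher and 2 lower. Behind the 9 RNAs that rose, 1 upstream gene was higher, 2 were lower and 6 were not called. Over all 35 RNAs that overlap a same-strand feature, where reads of the overlap could be shared or dropped in counting, 23 rose and 2 fell, against 84 and 10 of the other 132.

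A list of 35 factors known to limit antisense RNA was read in the same fit. Of these 12 (34.3%) rose, 14 (40.0%) fell and 9 were not called, beside 27.6% and 25.4% of all genes, with a median log2 fold change of -0.01. Seb1, which binds nascent RNA and promotes 3′-end processing and termination, had the largest change: 376, 576 and 544 CPM in *spx1*Δ against 183, 188 and 187 CPM in WT (log2 1.37, SE 0.15, edgeR adjusted p = 0.00234). *pst1*, for a scaffold subunit of a Clr6 complex, had 229.8, 469.6 and 385 CPM in *spx1*Δ and 171, 177 and 174 CPM in WT (1.00, adjusted p = 0.0138). Another termination factor gene, *pcf11*, was higher by 0.70 (adjusted p = 0.00778). *spt16*, the gene of the large FACT subunit, had 169, 88.3 and 105 CPM in *spx1*Δ against 227, 225 and 229 CPM in WT (-0.95, adjusted p = 0.0189). *clr6*, the deacetylase gene, had 82.3, 51.1 and 60.0 CPM in *spx1*Δ against 112, 113 and 116 CPM in WT (-0.86, adjusted p = 0.0109), and *dis3*, the exosome nuclease gene, fell by 0.77 on the log2 scale (adjusted p = 0.026). For these 6 genes replicate 1 was the *spx1*Δ library nearest to WT, as it was for the raised antisense RNAs; whether these levels have a part in the antisense changes was not tested. Chromatin, exosome and termination factors, taken broadly, held changes both ways, here named after their values were seen. Within the chromatin factors the called histone chaperone genes, *spt16*, *pob3*, *asf1*, *hip1* and *slm9*, fell. The histone chaperone genes *spt6*, *hip3* and *hip4* were not called (-0.03, 0.01 and -0.34). For *pob3*, the other FACT subunit gene, the log2 fold change was -0.37 (adjusted p = 0.0106). The calls for *asf1*, *hip1* and *slm9* were lost in several fits with 1 library left out (adjusted p = 0.0504 to 0.153). The called heterochromatin and RNA interference genes of the list, *swi6*, *dcr1* and *rdp1*, fell too (-0.24, -0.24 and -0.60). *clr4* and *ago1* of the same kind were not called (-0.18 and 0.05). The calls for *swi6*, *dcr1* and *rdp1* were lost in several fits with 1 library left out (adjusted p = 0.0501 to 0.138). The chromatin factor genes *hrp3*, *cph2* and *set2* rose by 0.52, 0.39 and 0.26 on the log2 scale (adjusted p = 0.0119, 0.0107 and 0.0452). The exosome nuclease gene *rrp6* and the helicase gene *mtr4* rose by 0.40 and 0.19 (adjusted p = 0.00695 and 0.0281), and the termination factor gene *rhn1* had a log2 fold change of -0.30 (adjusted p = 0.0196). The counts for the list were 6, 8, 6 and 7 higher and 2, 4, 5 and 2 lower without WT replicate 1, 2 or 3 or *spx1*Δ replicate 3. Of all genes 15.0 to 16.5% were called higher and 9.08 to 12.3% lower in these fits. The calls for *pst1*, *spt16* and *dis3* were lost in the same fits (adjusted p = 0.0518 to 0.0925). Those for *set2* and *mtr4* were lost without any library but *spx1*Δ replicate 1, those for *hrp3* and *rhn1* without WT replicate 1 or 3, and that for *rhn1* also without *spx1*Δ replicate 2 or 3 (adjusted p = 0.0526 to 0.150).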

How the data were processed

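The authors isolated RNA by the hot phenol method, made strand-specific poly(A)+ libraries (TruSeq stranded mRNA), sequenced them as paired ends on a NovaSeq, and mapped reads with HISAT2 2.1.0 to the ASM294v2 genome, with SAMtools for file conversion. The deposited values are raw counts per gene, made by the authors with HTSeq 0.10.0 over annotated exons. How strand was set in the counting step is not stated in those sources, and every antisense value depends on it. A further deposited table, from DESeq2, gave names and products only; its means, fold changes, standard errors, statistics and p-values were not used. The count table had 6987 rows, of which 1 repeats an ID.

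CPM is a count divided by the library's total. All comparisons came from 1 fit over the whole table in edgeR 4.0.16 (R 4.3.3; TMM, filterByExpr, quasi-likelihood F test) with Benjamini-Hochberg adjustment over 6127 genes, and a call is an adjusted p of at most 0.05. The script was checked on simulated counts. DESeq2 1.42.0, limma 3.58.1, other scalings, no filter, each library left out, a replicate block and minimums of 5 and 20 CPM were tried; a minimum on all 6 libraries was added after seeing the data. To place the libraries, the ratio of antisense to sense counts, with 0.5 added to each on the log2 scale, was set against the same pair in other libraries. The printed ratios had nothing added, and those given for a strain pooled its libraries. Ratios of different pairs were ranked and summarised without correction for length, as a description.

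Antisense RNAs were paired with the gene in their name. All 167, and 6833 of 6986 IDs, matched the RefSeq annotation of ASM294v3, from which no coordinates were taken. For 2 RNAs the named gene did not lie opposite (*ppk3*, *pbi2*), and these were left out of pairs. Sense gene groups used words in names and products, with short ones matched at the start of a word. The RNAs named are the 10 most abundant in WT, the 8 largest called rises and falls without overlap between strains, their sense genes, the 6 largest WT ratios, the 8 most opposed pairs, the 3 RNAs on each side of the minimum and the 6 largest called factors; 1 of the falls is not reported here, and others were chosen after their values were seen. The members and lists were chosen with earlier results of these data known.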

Additional observations from a re-analysis of the deposited data

How the results depend on the processing

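Of the 119 called RNAs, none changed direction under any alternative: DESeq2 gave 109 higher and 12 lower, limma-voom 100 and 12, DESeq2 size factors 109 and 12, library totals 112 and 11, TMM on protein-coding genes 115 and 11, and no filter 107 and 12. A minimum of 5 CPM let in 278 RNAs (177 higher; 71 sense genes higher and 67 lower) and one of 20 CPM kept 87 (65 higher and 5 lower; 19 sense genes higher and 23 lower). A minimum on all 6 libraries gave 181 higher. Leaving out 1 library gave 73 to 124 RNAs higher and 7 to 16 lower, 25 to 58 sense genes higher and 12 to 49 lower, and 6 to 13 listed factors higher and 2 to 16 lower; the cause of the difference between libraries was not tested. Signs turned only in genes near 0: *gid10* was 0.036 with library totals and 0.064 on protein-coding genes, where *mmp2* was 0.0017 and *sat1* 0.0144. With 1 library left out the values ran from -0.0881 to 0.0677 for *gid10*, from -0.10 to 0.55 for *atf21* and from -0.10 to 0.32 for *mss1-antisense-1*.

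Replicate numbers recur in both strains. Same-numbered libraries had deviations correlated at 0.12, 0.03 and 0.05 over genes, and WT replicate 2 correlated best with *spx1*Δ replicate 3 (0.08), so the numbers were not taken as pairs. With the replicate number as a block, 99 RNAs were called higher and 10 lower, with 45 and 35 sense genes and 11 and 11 factors. Among the genes named, calls were lost for SPNCRNA.1015 (adjusted p = 0.0598), *amt3-antisense-1* (0.0574), *rhp16-antisense-1* (0.0723), *ams2* (0.0760), *srm1* (0.0502) and *mtr4* (0.0649). Those for *asf1* (0.115), *dcr1* (0.0526) and *mam1* (0.0510) were lost too. WT libraries were shallower than *spx1*Δ libraries, and the ratios at nearly silent sense genes such as *spo4* rest on few counts.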
